A study of Mus musculus with 18 samples.

Results

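The genes described here encode acute phase proteins, and they were chosen by name: the 4 serum amyloid A genes Saa1, Saa2, Saa3 and Saa4, the 3 orosomucoid genes Orm1, Orm2 and Orm3, haptoglobin (Hp), hemopexin (Hpx) and serum amyloid P component (Apcs). All 10 were among the 21899 genes with a value in 18 RNA-seq libraries. The libraries came from wild type C57BL/6 mice of 18 weeks that had received a high-salt diet (HSD) or a control diet (CON) for 12 weeks. The HSD mice ate chow with added NaCl and drank saline, and the CON mice ate chow and drank tap water. Liver, epididymal white adipose tissue (eWAT) and quadriceps muscle each gave 3 CON and 3 HSD libraries, numbered as replicates 1 to 3 in the labels, and a library holds the RNA of 1 tissue piece of 1 male mouse. Levels are in FPKM, the fragments of a gene scaled by its exon length and by the total of the library.

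The acute phase response is the change in plasma proteins that follows infection, injury or inflammation. Interleukin-6, acting through gp130 and STAT3, and interleukin-1 and TNF, acting through NF-kB and C/EBP factors, raise the transcription of positive acute phase genes in hepatocytes, while negative acute phase genes such as Alb are turned down. In the mouse, Saa1 and Saa2 are the most inducible of these genes and are nearly silent in a resting liver, Saa3 is made by macrophages and adipocytes as well as liver, Saa4 is expressed without a stimulus, and Hp and Orm1 are also products of adipocytes.

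The genes lie in clusters of near copies. On mm10, the coordinates of GENCODE M21 place Saa3 (ENSMUSG00000040026) at chr7:46711998-46715700, Saa4 (ENSMUSG00000040017) at chr7:46727998-46732603 and Saa1 (ENSMUSG00000074115) at chr7:46740497-46742980, all on the minus strand, and Saa2 (ENSMUSG00000057465) at chr7:46751790-46754313 on the plus strand, so that Saa1 and Saa2 start next to each other in opposite directions. Orm1 (ENSMUSG00000039196, chr4:63344560-63348163), Orm3 (ENSMUSG00000028359, chr4:63356162-63359511) and Orm2 (ENSMUSG00000061540, chr4:63362449-63365878) follow each other on the plus strand. Hpx (ENSMUSG00000030895) is at chr7:105591613-105600137, Hp (ENSMUSG00000031722) at chr8:109575128-109579172 and Apcs (ENSMUSG00000026542) at chr1:172893961-172895041, all on the minus strand. The longest coding transcripts of Saa1 and Saa2 were identical at 94.4% of 606 aligned bases and shared 2 of 535 windows of 75 bases. Those of Orm1 and Orm2 were identical at 91.0% of 775 bases and shared 97 of 701 windows, or 13.8%, while Orm2 and Orm3 (88.5% of 772 bases) shared 1 window and Orm1 and Orm3 (86.5%) shared 0. Reads from such shared stretches could be counted for either copy, so a low Orm2 value beside a high Orm1 value is uncertain.

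The likeness extends upstream of the genes. The following stretches, from RefSeq on GRCm38.p6, run 5′ to 3′ from 250 to 51 bases before the start of each gene and are shown to compare the control regions of the inducible pair Saa1 and Saa2 and of the pair Orm2 and Orm3, whose levels differed between liver and eWAT. Capitals mark bases that differ from the aligned partner or have no partner.
Saa1, chr7:46743031-46743230, minus strand: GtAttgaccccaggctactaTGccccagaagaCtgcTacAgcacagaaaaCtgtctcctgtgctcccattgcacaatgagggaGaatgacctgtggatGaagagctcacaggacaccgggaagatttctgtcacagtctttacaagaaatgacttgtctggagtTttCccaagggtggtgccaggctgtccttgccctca
Saa2, chr7:46751583-46751782, plus strand: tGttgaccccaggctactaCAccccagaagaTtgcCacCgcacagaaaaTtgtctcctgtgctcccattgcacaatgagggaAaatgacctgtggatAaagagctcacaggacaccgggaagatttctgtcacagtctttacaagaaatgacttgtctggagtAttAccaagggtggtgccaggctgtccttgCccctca
Orm2, chr4:63362199-63362398, plus strand: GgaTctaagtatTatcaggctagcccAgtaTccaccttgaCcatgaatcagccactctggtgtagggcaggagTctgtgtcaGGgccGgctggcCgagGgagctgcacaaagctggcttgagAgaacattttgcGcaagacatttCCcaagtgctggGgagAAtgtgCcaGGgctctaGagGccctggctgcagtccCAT
Orm3, chr4:63355908-63356107, plus strand: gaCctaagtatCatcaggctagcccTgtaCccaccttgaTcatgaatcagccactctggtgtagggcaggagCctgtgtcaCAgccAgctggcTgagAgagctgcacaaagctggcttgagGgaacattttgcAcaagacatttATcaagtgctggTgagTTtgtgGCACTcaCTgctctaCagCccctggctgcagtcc
Of the aligned bases, 188 of 199 were identical in the Saa1 and Saa2 pair (94.5%) and 173 of 196 in the Orm2 and Orm3 pair (88.3%). A search on both strands of the 250 bases before the start covered the 8 members with a RefSeq promoter, that is, all but Orm1 and Hp. The C/EBP palindrome TTGCGCAA, which 0.164% of all 32851 promoters of this length hold, was in Orm2, 120 to 113 bases before the start. Orm3 holds TTGCACAA at the same place, 121 to 114 bases before its start, and so do Saa1 (182 to 175) and Saa2 (183 to 176). This second form is in 0.895% of all promoters. The looser form TTGCNNAA, which includes both, was in 7 of the 8 members and in 9.56% of all promoters. The STAT motif TTCNNNGAA was in Apcs alone of the 8 and in 7.02% of all promoters. The NF-kB consensus, in 0.140% of all promoters, was in none of the 8, and a looser NF-kB form, in 1.24%, was in Saa1 alone. These matches describe the letters only.

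Libraries held 7628072 to 16637489 fragments on the genes measured. Mitochondrially encoded genes took 15.38% to 60.82% of them in liver, 3.52% to 5.11% in eWAT and 11.32% to 16.5% in muscle. Libraries that stood apart were CON liver replicate 1, with the highest mitochondrial share and the lowest sum over 28 hepatocyte markers (14736 FPKM, against 31834 to 68391 in the other liver libraries), CON liver replicate 2, in which 10 skeletal muscle markers summed to 4768 FPKM, and HSD eWAT replicate 2, in which 16 epididymal epithelium markers summed to 26499 FPKM and 9 adipocyte markers to 7218, against 17068 to 23536 in the other eWAT libraries. All 28 hepatocyte markers were above 0 in each liver library, and the 9 adipocyte and 10 skeletal muscle markers in each library of their tissue. In whole tissue, fewer cells of a type and less RNA per cell cannot be told apart.

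In the liver, Hp, Hpx and Orm1 were abundant and the inducible serum amyloid A genes were nearly silent on either diet. Over the 6 libraries, the mean was 2111 FPKM for Hp, 1379 for Hpx, 534 for Orm1, 75.5 for Saa4, 42.4 for Apcs, 12.3 for Orm2, 3.21 for Saa1, 3.17 for Orm3, 2.62 for Saa3 and 1.45 for Saa2. In this order the 6 values of each gene overlapped those of the next, except that the lowest Orm1 value was above the highest Saa4 value. The exons counted as Saa1 and Saa2 add up to 4.07 and 3.86 times their longest coding transcripts, so their FPKM understates the levels of these mRNAs beside other genes. Scaled to that transcript, the liver means were 13.0 FPKM for Saa1 and 5.60 for Saa2, still below the 75.5 of Saa4, whose exon length is unchanged. Together the 10 genes held 0.212% to 1.26% of the summed FPKM of a liver library, and Hp ranked between 21 and 30 among all genes.

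Diet was compared in the liver first, the main source of these proteins. None of the 10 genes was called changed by the diet there. Saa1, a high-density lipoprotein component and the classic plasma marker of inflammation, was at 0.899, 1.84 and 3.62 FPKM in CON replicates 1 to 3 and at 4.07, 7.54 and 1.27 in HSD replicates 1 to 3. HSD replicate 2 stood highest and HSD replicate 3 fell among the CON values. Saa2, its near copy, was at 0.104, 0.751 and 1.43 FPKM in the CON and 1.52, 3.67 and 1.21 in the HSD libraries, which rest on 2 to 96 fragments. The lowest HSD value lay below the highest CON value, so the groups overlapped. Saa3 was at 0.101, 2.28 and 3.23 FPKM in CON and 3.06, 4.58 and 2.47 in HSD, where CON replicate 1 alone was near 0. For Saa4, the constitutive apolipoprotein of the family, the values were 32.0, 73.2 and 67.0 FPKM in CON and 105, 98.9 and 76.9 in HSD. Saa4 was the 1 gene of the 10 whose groups did not overlap, with the HSD libraries on top, and over all genes tested 8.62% were wholly above in HSD and 3.47% wholly below.

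The mean HSD to CON ratio was 2.03 for Saa1, 2.80 for Saa2, 1.80 for Saa3 and 1.63 for Saa4. On the log2(FPKM + 0.5) scale the differences were 0.76 ± 0.60 (SE), 1.10 ± 0.50, 1.04 ± 0.65 and 0.78 ± 0.43, and limma gave all 4 the adjusted p of 0.764. None of them passed the threshold after adjustment over all genes tested. The unadjusted p from limma ran from 0.0613 for Saa2 to 0.245 for Saa1.

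The orosomucoids, plasma lipocalins that bind drugs and lipids, took another order. Orm1 was at 253, 614 and 838 FPKM in the CON and at 403, 713 and 384 in the HSD libraries, with a log2 difference of -0.08 ± 0.57 (SE) and an adjusted p of 0.971. Orm2 was at 1.86, 8.32 and 27.8 FPKM in CON and 8.05, 14.8 and 12.8 in HSD. Orm3 was at 0.848, 0.890 and 8.77 FPKM in CON and 2.61, 1.496 and 4.39 in HSD. All 3 were highest in CON replicate 3, which no serum amyloid A gene was, and the CON values of Orm2 and Orm3 spanned all HSD values. The log2 differences of Orm2 and Orm3 were 0.52 ± 0.82 and 0.27 ± 0.75 (SE).

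Haptoglobin clears free haemoglobin and hemopexin clears free haem. Hp was at 547, 2213 and 1631 FPKM in CON and 3429, 3152 and 1694 in HSD, a mean of 1464 ± 846 (SD, n = 3) against 2759 ± 932. HSD replicate 3 lay between the CON values and the other HSD libraries above them. The log2 difference of Hp was 1.07 ± 0.65 (SE), with an adjusted p of 0.764. Hpx was at 437, 1623 and 1318 FPKM in CON and 1806, 2227 and 862 in HSD, a log2 difference of 0.63 ± 0.66 (adjusted p = 0.783). Apcs, the murine pentraxin that responds in the acute phase and binds amyloid, was at 12.6, 62.9 and 47.2 FPKM in CON and 43.3, 69.1 and 19.2 in HSD, with a log2 difference of 0.20 ± 0.71 (adjusted p = 0.938). The groups overlapped for all 3.

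**Figure D1:**
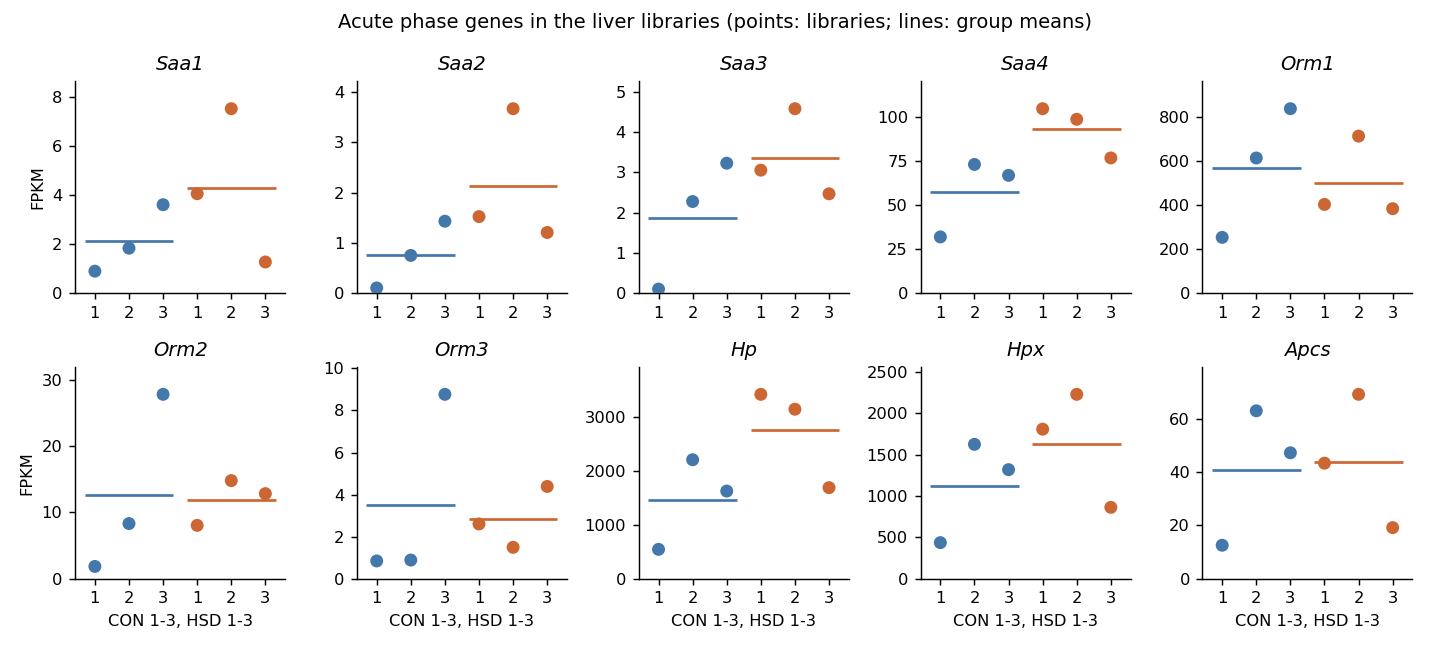
FPKM of the 10 acute phase genes in the 6 liver libraries, each panel with its own linear axis from 0, CON replicates 1 to 3 in blue and HSD replicates 1 to 3 in orange, with lines at the group means. CON replicate 1 is the lowest point in all 10 panels, and Saa4 is the panel in which every HSD point is above every CON point.

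Of the 10 liver differences, 9 were above 0, with a median of 0.69 beside 0.13 over the 10317 genes tested, of which limma called 0% (0 genes, with 592 at an unadjusted p under 0.05). None of the 10 had an unadjusted p under 0.05, and limma voom on recovered fragments also called 0 genes. The plot of liver libraries shows that a single library bears on this: all 10 genes had their lowest value in CON replicate 1. Without it the median over the 10 dropped to 0.14, Saa2 was at 0.65, Hp at 0.47 and Hpx at 0.05, and Orm2 and Apcs were at -0.39 and -0.49. Other single libraries also moved the median, in both directions. It was 0.47 without HSD replicate 2, 0.68 without HSD replicate 1 and 0.87 without CON replicate 2. It rose to 0.97 without HSD replicate 3 and to 1.17 without CON replicate 3. With the mitochondrial share fitted as a covariate, the median was 0.17, Hp was at 0.31 and Hpx at -0.17. In the libraries that the study lists in its read quality table, without CON replicate 2 and HSD replicate 3, the median was 1.24 and Hp reached 1.80, but 0 of the 10 were called (adjusted p from 0.116 for Saa1 to 0.869 for Orm1), beside 35 of 9970 genes, or 0.351%.

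The liver values were also set against the hepatocyte markers. Divided by the geometric mean of the 28 markers, the Hp level was 1267 ± 223 in CON and 1475 ± 73.8 in HSD (mean ± SD, n = 3, in FPKM at the mean marker level of CON liver), a ratio of 1.16, and Saa4 was at 54.4 ± 8.66 and 53.1 ± 14.9. The ratio was 1.10 for Saa1, 1.92 for Saa2, 1.37 for Saa3, 0.867 for Hpx, 0.736 for Orm2, 0.669 for Orm3 and 0.651 for Apcs. On this scale Orm1 alone of the 10 had groups that did not overlap, at 422 to 606 in CON and 173 to 351 in HSD, beside 10.6% of genes wholly below in HSD. This scale was chosen after the values were seen and was not tested. Of the macrophage markers in liver, 5 of the 12 tested of 13 were lower in HSD at an unadjusted p under 0.05, none was called, and their sum was 80.5 to 87.5 FPKM in CON and 32.4 to 51.1 in HSD, with none of the 13 at 0. Their part in the values of Saa3, which macrophages also make, was not tested.

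Other positive acute phase genes of the liver were close to the 10 in size. Of 17 on a list, 14 were tested and 0 called, with a median log2 difference of 0.94. Lbp, the lipopolysaccharide-binding protein, was at 4.42 to 6.62 FPKM in CON and 11.6 to 14.98 in HSD (log2 difference 1.08 ± 0.27, SE), Serpina3n, a protease inhibitor, at 13.5 to 35.7 and 36.5 to 63.1 (0.99 ± 0.45), and complement C3 at 217 to 299 and 306 to 705 (0.90 ± 0.47). These were the 3 of the 14 wholly above in HSD, with an adjusted p of 0.764 each, and 0 were wholly below. Of all genes, 8.62% were wholly above and 3.47% wholly below. The 7 negative acute phase genes were not called either and had a median of 1.26. The values of Trf, Serpina6 and Rbp4, carriers of iron, corticosterone and retinol, differed by 1.32 ± 0.72, 1.23 ± 0.71 and 1.35 ± 0.80 (SE). Serpina6 was the 1 gene of the 7 wholly above in HSD. Positive and negative acute phase genes thus both had medians above that of all genes, as did the hepatocyte markers (median 0.81 over 28, 0 called).

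Of 8 inducing cytokines, 2 passed the filter in liver, Il1b (mean 1.08 FPKM in CON, 0.653 in HSD) and Il1a (1.32 and 0.719), and neither was called. Among 7 cytokine receptors, 6 were tested and 0 called, led by Il1rap (log2 difference 1.01 ± 0.47, SE), and all 15 signalling and transcription factors were tested with 0 called. Of these, 4 were wholly above in HSD, beside the 8.62% of all genes, among them Hnf4a (62.5 to 76.9 FPKM in CON, 115 to 132 in HSD) and Nfkbia, an NF-kB inhibitor and target (17.5 to 24.4 and 30.4 to 34.0). The haemoglobin and haem clearance genes (6 tested, 0 called) included the haptoglobin-haemoglobin receptor Cd163 at 0.958 and 0.441 FPKM, with Hmox2 and Blvra at differences of 0.53 and 0.18. Of 7 serum amyloid A receptors and lipoprotein partners, 3 were tested and 0 called, with Scarb1, a receptor for high-density lipoprotein, at 2.67 to 5.75 FPKM in CON and 6.81 to 11.5 in HSD.

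By Pearson correlation over the 6 liver libraries with the mean scaled profile of the 10 genes, the genes most alike were Sec14l2 (r = 0.992), Snrpg (0.990), Mblac2 (0.990), S1pr5 (0.989) and Mindy3 (0.986). All 5 were lowest in CON replicate 1, as the profile was, and the 6 points share the differences in mitochondrial share described above. These coefficients are a description.

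The levels in CON tissues gave a different picture for each family (median over the 9 genes tested, on the log2 scale, 1.895 for liver minus eWAT). Hp was abundant in eWAT as well as in liver, and no difference was called: its CON values were 1794, 1831 and 1870.04 FPKM in eWAT, a far narrower range than the 547 to 2213 of liver, and 7.85, 12.1 and 5.79 in muscle. The liver to eWAT difference of Hp was -0.55 ± 0.52 (SE) with an adjusted p of 0.345, and it turned to 1.12 (adjusted p = 0.0657) under median-ratio scaling, since the deposited FPKM placed the median gene 1.36 lower in liver than in eWAT on the log2 scale. Orm3 was the 1 gene of the 10 called higher in eWAT: CON eWAT values were 20.6, 30.9 and 30.2 FPKM, all above the 0.848 to 8.77 of CON liver (log2 difference -3.40 ± 0.66, adjusted p = 0.000984), and it kept this sign under the scaling. Orm1, at 112, 191 and 195 FPKM in CON eWAT, was 3.42 times lower there than in liver, and Orm2, at 1.21, 1.87 and 2.33, 7.02 times lower, with groups that overlapped.

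Hpx, Saa4, Apcs, Saa1 and Saa2 were far higher in liver. Hpx was at 5.37, 12.1 and 5.33 FPKM in CON eWAT, 148-fold below liver, and Saa4 at 0.566, 0.599 and 0.201 (126-fold), while Apcs was at 0.321, 0.883 and 0 (102-fold) and Saa1 at 0.176, 0.107 and 0.0243 (20.7-fold). Saa2 had 0 fragments in CON eWAT and CON muscle, against 57 in CON liver, so that it was at least 32.0-fold higher in liver than in eWAT and at least 24.3-fold higher than in muscle, with a floor of 3 fragments over a group. Saa3 did not pass the threshold between liver and eWAT (1.29, 0.304 and 1.13 FPKM in CON eWAT, log2 difference 0.47 ± 0.61, adjusted p = 0.485). In sum 7 of 9 genes tested were called between liver and eWAT (6 higher in liver, 1 lower), beside 69.4% of all genes (917 higher and 7851 lower, or 2625 and 2564 under median-ratio scaling). All 9 tested were higher in liver than in muscle, beside 50.1% of all genes called (1893 higher and 4436 lower, or 2941 and 3095 under that scaling). Saa1, Saa4 and Apcs had CON means of 0.102, 0.455 and 0.402 FPKM in eWAT and at most 0.0290 in muscle. They passed the filter, a mean over all CON libraries, through liver alone, so their direction in these counts was set by the filter. Saa3, at 0.0229 FPKM in CON muscle, 0.909 in CON eWAT and 1.87 in CON liver, also needed its liver level to pass. Its direction against muscle was thus set by the filter too. Orm2, at 0 FPKM in CON muscle, passed through liver and eWAT.

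Muscle held little of any of them. Hpx at 0.0503 to 2.08 FPKM, Orm1 at 0.682 to 1.62 and Orm3 at 0 to 0.488 followed Hp in CON muscle, and the others were below 0.1 FPKM in every CON library. Between CON eWAT and muscle 5 of 9 were called, all higher in eWAT (Hp, Orm1, Orm2, Orm3 and Hpx, of which Orm2 lost its call with a pseudocount of 1, adjusted p = 0.0656, and with median-ratio scaling, 0.0995), beside 54.9% of all genes (5924 higher and 1009 lower, or 2435 and 2285 under that scaling). Orm2 and Saa4 had 0 fragments in CON muscle and were at least 16.9-fold and 11.4-fold higher in eWAT. The order within CON eWAT was Hp, Orm1, Orm3, Hpx and Orm2, each wholly above the next, while Saa3, Saa4, Apcs and Saa1 overlapped with their neighbours except that Saa1 was above Saa2.

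**Figure D2:**
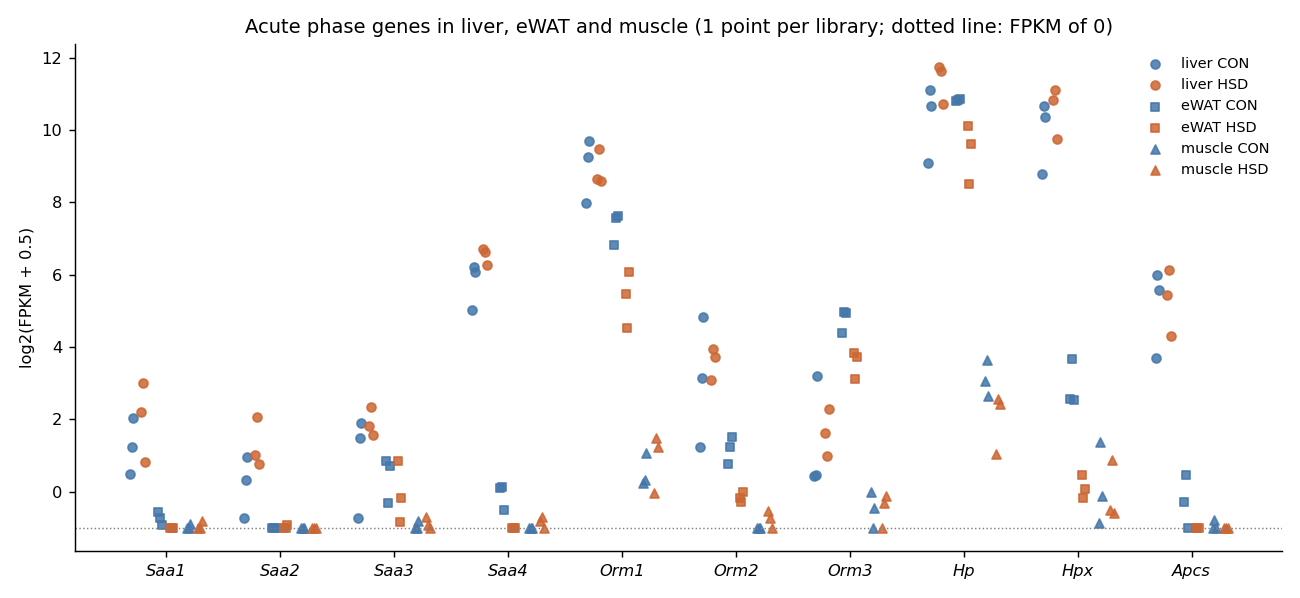
Level of each acute phase gene as log2(FPKM + 0.5), with circles for liver, squares for eWAT and triangles for muscle, blue for CON and orange for HSD, 1 point per library, and a dotted line at an FPKM of 0. Hp reaches the same height in liver and CON eWAT, Orm3 is higher in CON eWAT than in CON liver, and Saa2 lies on or near the line outside liver.

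In eWAT the HSD mean was the lower one for all 6 genes that passed the filter. For 5 of them every HSD library was below every CON library, although none was called with all libraries. Hp was at 1794, 1831 and 1870.04 FPKM in CON replicates 1 to 3 and at 1100.2, 362 and 789.7 in HSD replicates 1 to 3, or 1831 ± 38.1 against 751 ± 371 (SD, n = 3). HSD replicate 2, the library with epididymal transcripts, was lowest. The log2 difference of Hp was -1.43 ± 0.43 (SE), with an adjusted p of 0.216. Orm1 was at 112, 191 and 195 FPKM in CON and 43.6, 22.6 and 67.0 in HSD, a ratio of 0.267, with a log2 difference of -1.98 ± 0.44 and an adjusted p of 0.152.

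Orm3 was at 20.6, 30.9 and 30.2 FPKM in CON eWAT and 13.8, 8.10 and 12.8 in HSD, a log2 difference of -1.21 ± 0.25 (adjusted p = 0.146). Orm2 was at 1.21, 1.87 and 2.33 FPKM in CON and 0.378, 0.315 and 0.493 in HSD, from 3 to 5 fragments per HSD library (-1.34 ± 0.26, adjusted p = 0.132). The ratio of Orm3 to Orm1 was 0.155 to 0.184 in CON and 0.190 to 0.359 in HSD libraries. The gap between the groups was narrow, and the ratio was not tested or set beside other gene pairs. Hpx was at 5.37, 12.1 and 5.33 FPKM in CON and 0.880, 0.380 and 0.561 in HSD, with the widest log2 difference of the 6, -2.80 ± 0.36, and an adjusted p of 0.0905. Saa3 was at 1.29, 0.304 and 1.13 FPKM in CON and 1.29, 0.0624 and 0.381 in HSD, which overlapped (-0.47 ± 0.54, adjusted p = 0.639).

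The other 4 genes were under the filter in eWAT. Saa4 was at 45 fragments over the CON libraries and 0 over the HSD libraries, so it was at least 12.2-fold higher in CON, and Saa1 (12 fragments against 0) was at least 3.26-fold higher. Apcs had 5, 13 and 0 fragments in CON and 0 in HSD, at least 4.90-fold higher in CON as a group though CON replicate 3 was also at 0. These bounds pool the fragments of a group, take the CON count as exact and do not cover the spread between mice. Saa2 had 1 fragment in HSD replicate 3 and none elsewhere. Of the 6 genes tested, 5 had every HSD library below every CON library. Over the 13740 genes tested, 12.4% were wholly below and 16.2% wholly above in HSD.

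The median over the 6 tested was -1.38, beside 0.08 over all genes. With all libraries limma called 0% of 13740 genes, 2298 of which had an unadjusted p under 0.05, 5 of the 6 members among them, and voom called 0 as well. Without HSD replicate 2, limma called 160 of 13245 genes (1.21%), and among the 6 the calls were Hpx (-2.64, adjusted p = 0.0244), Orm1 (-1.57, 0.0393) and Orm2 (-1.27, 0.0454), while Hp (-0.97, 0.0304) and Orm3 (-0.99, 0.0387) had an adjusted p under 0.05 and missed the fold threshold of 1. In the study's libraries, without HSD replicate 3, 0 of 13844 genes (0%) were called, with Orm1 at -2.34 (adjusted p = 0.165).

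**Figure D3:**
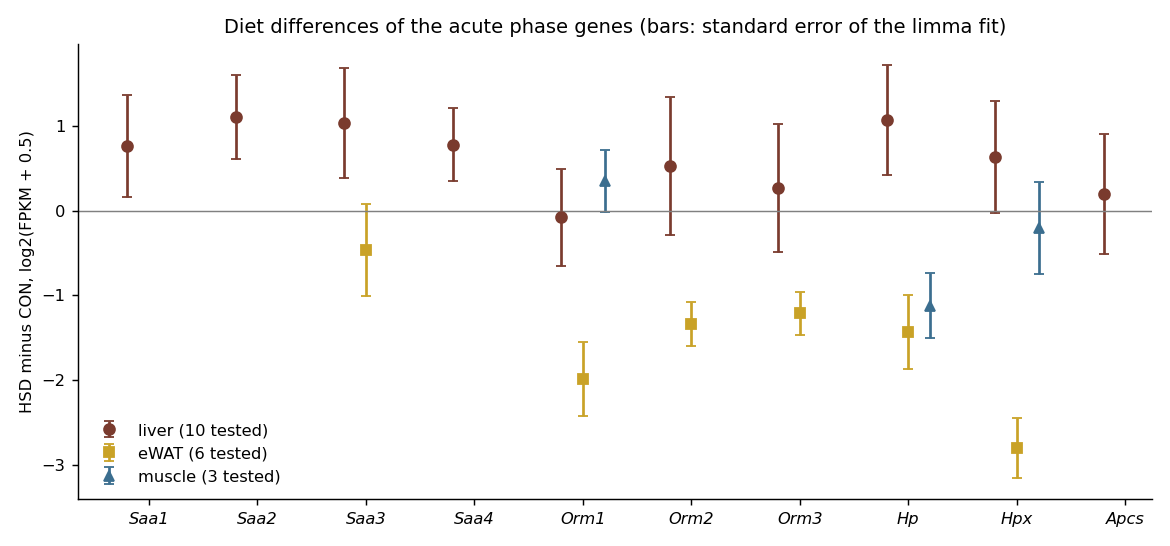
HSD minus CON on the log2(FPKM + 0.5) scale for each acute phase gene that was tested, with circles for liver, squares for eWAT and triangles for muscle, and bars for the standard error of the fit (3 libraries per group). All 6 eWAT squares are below 0, from -2.80 for Hpx to -0.47 for Saa3, while 9 of 10 liver circles are above 0.

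The eWAT libraries of the CON group also carried more transcripts of hepatocytes. Of 28 hepatocyte markers, 23 were tested in eWAT with 0 called, and 19 were lower in HSD at an unadjusted p under 0.05. Wholly below in HSD were 20 of them, beside 12.4% of all genes. Their sum was 140 to 326 FPKM in CON and 19.9 to 36.8 in HSD, and F2, F9, Cyp2c29, Hgd, Agxt, Otc and Hao1 were at 0 in at least 1 HSD library but in no CON library. Set as a percentage of the mean in CON liver, the median marker was at 0.841%, 1.19% and 0.416% in CON replicates 1 to 3 and at 0.104%, 0.0368% and 0.0501% in HSD replicates 1 to 3.

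Hpx lay among these markers, and Hp, Saa3 and the orosomucoids lay above them. Hpx was at 0.477%, 1.08% and 0.474% of its liver level in CON and 0.0782%, 0.0337% and 0.0498% in HSD, with 8 to 16 of the 28 markers below it. Saa4 was at 0.986%, 1.04% and 0.350% in CON, also between the lowest and the highest marker, and Apcs at 0.786%, 2.16% and 0%. Hp was at 123% to 128% of liver in CON and 24.7% to 75.2% in HSD, Orm1 at 19.7% to 34.3% and 3.97% to 11.8%, Orm2 at 9.54% to 18.4% and 2.49% to 3.90%, and Orm3 at 587% to 882% and 231% to 395%. For these 4, and for Saa3 at 3.34% to 69.2%, all 28 markers lay below in each of the 6 libraries. The part of the hepatocyte transcripts in the eWAT values of Hpx, Saa4 and Apcs was not tested.

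**Figure D4:**
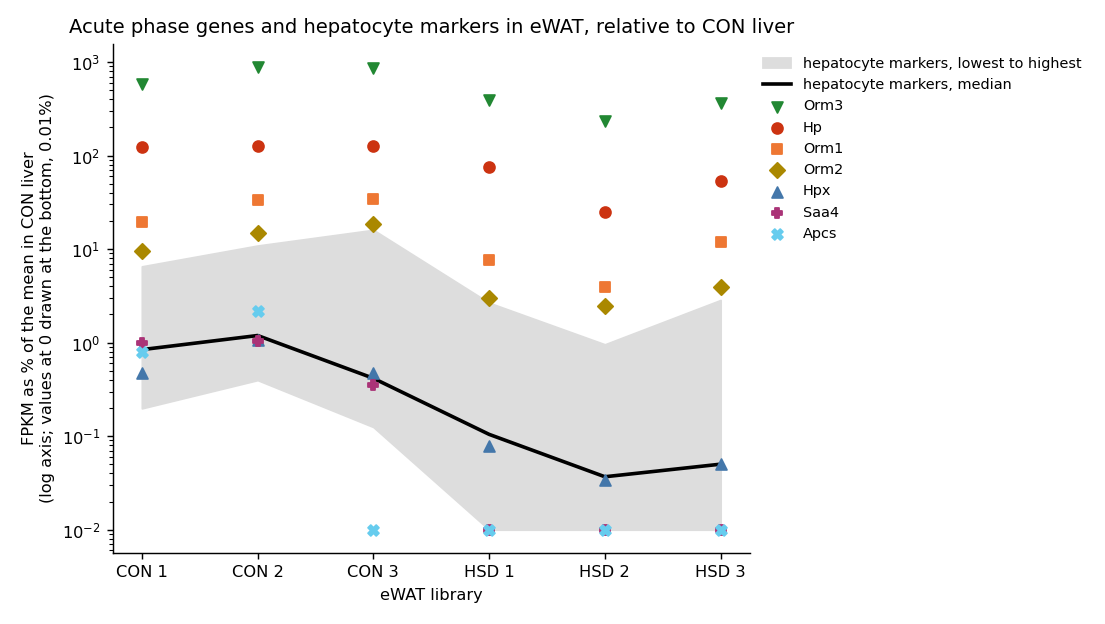
FPKM in each eWAT library as a percentage of the mean in CON liver, on a log axis, for 7 acute phase genes (points) and 28 hepatocyte markers (grey band from lowest to highest, black line at the median), with values at 0 drawn at the lower edge, where Saa4 and Apcs coincide in the HSD libraries. Orm3, Hp, Orm1 and Orm2 are above the band in all 6 libraries, and Hpx lies within it, near the median.

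The cells that make Hp and Orm1 in fat were compared in the same way. Adipocyte markers summed to 17068 to 18180 FPKM in CON eWAT and 7218 to 23536 in HSD, with none of the 9 at 0. Divided by the geometric mean of these markers, Hp was at 1832 ± 66.3 in CON and 1033 ± 205 in HSD (SD, n = 3, in FPKM at the marker level of CON eWAT), a ratio of 0.564, and Orm1 at 165 ± 40.4 and 61.6 ± 13.5, a ratio of 0.374. On this scale, which was chosen after the values were seen and was not tested, 4 of the 6 genes were wholly below in HSD (Hp, Orm1, Orm2 and Hpx), beside 1.76% of all genes, and Orm3 (27.1 ± 4.63 and 17.7 ± 6.84) and Saa3 overlapped. The division raises every gene in HSD replicate 2, whose marker level was 0.317 of CON eWAT. The share was 12.4% before it, so 1.76% does not show how unusual these genes are. Macrophage markers, 9 of 11 tested with an unadjusted p under 0.05 and 0 called, summed to 586 to 867 FPKM in CON and 254 to 544 in HSD, where Clec4f and Cd5l were at 0 in at least 1 library, and their part in these values was not tested. Neutrophil markers summed to 4.53 to 9.07 and 2.56 to 3.43 FPKM, and blood cell markers to 243 to 5667 and 318 to 548.

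Of 17 other positive acute phase genes, in eWAT 13 were tested, 0 called and 7 lower at an unadjusted p under 0.05, with a median of -0.82. Lbp was at 31.3 to 40.4 FPKM in CON and 11.1 to 18.6 in HSD (-1.20 ± 0.21, SE, adjusted p = 0.121) and Serpina3n at 154 to 198 and 35.9 to 98.2 (-1.52 ± 0.37, adjusted p = 0.163). Fgb, the fibrinogen beta chain, was at 1.67 to 5.51 and 0.0602 to 0.192 FPKM (-2.54 ± 0.39, adjusted p = 0.114). All 6 negative acute phase genes tested were wholly below in HSD, beside 12.4% of all genes, and 0 were called. They were led by Apoa1 (-4.55 ± 0.51, adjusted p = 0.0830), Alb (-4.08 ± 0.48, 0.0884) and Ahsg (-3.22 ± 0.36, 0.0830), all of them hepatocyte products.

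Upstream of these genes in eWAT, Cebpb, a C/EBP factor that drives acute phase and adipocyte genes, was at 12.1 to 20.6 FPKM in CON and 3.15 to 8.67 in HSD (-1.62 ± 0.39, adjusted p = 0.160), and 0 of 14 signalling and transcription factors tested were called. Jak2 (12.7 to 13.3 FPKM in CON and 15.1 to 18.7 in HSD) and Tyk2 (6.74 to 7.44 and 8.16 to 9.19), kinases of the interleukin-6 receptor complex, were wholly above in HSD. They were the 2 of the 14 wholly above, and 2 were wholly below, close to the 16.2% and 12.4% of all genes. The 2 cytokines tested, Lif and Il1b, differed by -0.30 ± 0.25 and 0.16 ± 0.37, and none of 7 receptors had an unadjusted p under 0.05. Among haem clearance genes (6 tested, 0 called), Hmox1, haem oxygenase, was at 19.0 to 25.7 FPKM in CON and 8.64 to 17.8 in HSD, Blvra at 11.8 to 14.4 and 7.38 to 9.25, and Blvrb at 15.8 to 17.0 and 9.82 to 15.4. Of 5 serum amyloid A receptors and partners tested, 0 were called. Tlr2 was at 2.65 to 3.54 and 1.62 to 2.50 FPKM and Ager at 0.786 to 1.31 and 1.57 to 1.99.

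Whether the diet difference in eWAT departed from that in liver was tested as an interaction. It was called for 99 of 13067 genes, or 0.758%, and of 9 acute phase genes tested for Saa4 alone: the diet difference in eWAT minus that in liver was -1.68 ± 0.36 (SE, log2), with an adjusted p of 0.0414. Saa4 was under the filter in eWAT, with 45 CON fragments and 0 HSD fragments, and entered this fit only through its liver level, and the call was lost with a pseudocount of 1 (-1.30, adjusted p = 0.0866) and with median-ratio scaling (-1.24, adjusted p = 0.107). All 9 estimates were below 0, among them Hpx at -3.43 ± 0.86 (adjusted p = 0.0890), Hp at -2.50 ± 0.78 (0.183) and Orm1 at -1.90 ± 0.72 (0.259). Their median was -1.68, the value of Saa4 itself, beside -0.01 over all genes. Saa1 and Apcs, with 12 and 18 CON fragments and 0 HSD fragments in eWAT, also entered this fit only through liver. The count and the median thus include genes too low in eWAT to be tested there.

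In muscle 3 genes passed the filter and 0 were called, beside 35 of 10834 genes (0.323%, 11 higher and 24 lower, or 13 and 14 under median-ratio scaling). Hp was at 7.85, 12.1 and 5.79 FPKM in CON and 1.54, 5.37 and 4.87 in HSD. All HSD values were below the CON values, as for 15.6% of genes, with 6.72% wholly above. The log2 difference of Hp was -1.12 ± 0.38 (SE), with an adjusted p of 0.193. Orm1 was at 0.682, 0.763 and 1.62 FPKM in CON and 0.485, 2.29 and 1.87 in HSD (0.35 ± 0.37, adjusted p = 0.682) and Hpx at 0.0503, 2.08 and 0.417 and 0.200, 1.34 and 0.161 (-0.21 ± 0.54, adjusted p = 0.884). With the replicate number as a block, although no label pairs the CON and HSD mice, 54 genes were called and Hp reached an adjusted p of 0.0758. Saa2 had 0 fragments in all 6 libraries, and none of Saa1, Saa3, Saa4, Orm2 and Apcs had more than 4 in a library.

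Muscle libraries held adipocyte transcripts, 118 to 223 FPKM summed over 9 markers in CON and 82.4 to 291 in HSD, with none of the 9 at 0. Divided by these markers, Hp was at 904 to 1112.5 in CON muscle and 332 to 475 in HSD muscle, again in FPKM at the marker level of CON eWAT, a ratio of 0.424. Hp was the 1 of 3 genes with groups that did not overlap on this scale, as 0.868% of genes were wholly below. Marker levels in HSD muscle ran from 0.00465 to 0.0113 of CON eWAT, and dividing by them spreads genes that do not follow the markers. The share was 15.6% before the division, so 0.868% does not show how unusual Hp is. The ratio of Hp to Adipoq, the adipocyte hormone adiponectin, was 1.13, 0.735 and 0.798 in CON muscle and 0.411, 0.306 and 0.355 in HSD muscle, beside 0.843, 0.927 and 0.916 in CON eWAT and 0.568, 0.523 and 0.383 in HSD eWAT. HSD ratios were thus below all CON ratios in both tissues. No share over other genes was taken for this ratio, and Adipoq was at only 3.75 to 17.6 FPKM in muscle. The eWAT and muscle libraries carry the same mouse codes, so the tissues are not independent here. Both scales were chosen after the values were seen and were not tested, and 7 of 8 macrophage markers tested had an unadjusted p under 0.05 and were lower in HSD muscle (1 called, sums of 56.6 to 90.2 FPKM in CON and 40.0 to 42.9 in HSD, with Marco, Clec4f and Cd5l at 0 in at least 1 library of each group and Timd4 and Vsig4 in HSD).

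**Figure D5:**
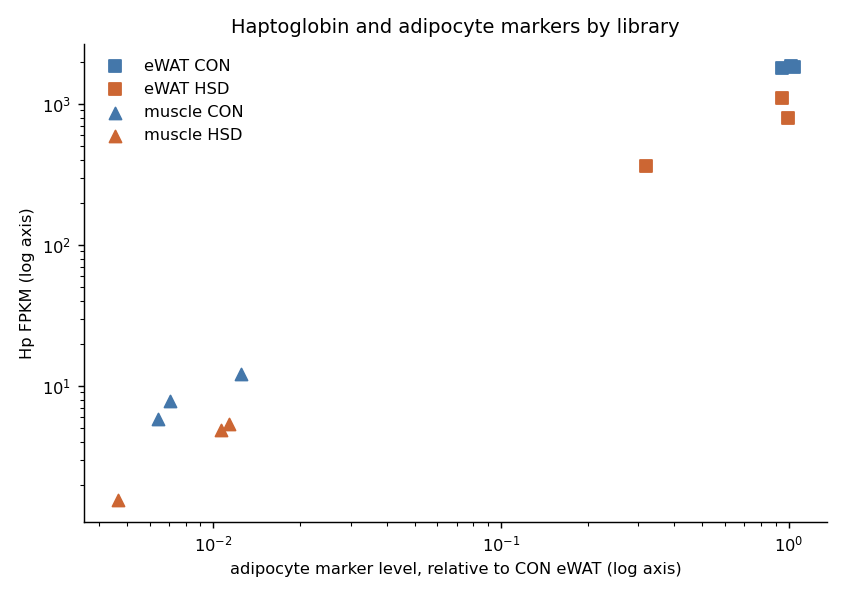
Hp in FPKM against the geometric mean of 9 adipocyte markers relative to CON eWAT, both on log axes, with squares for eWAT and triangles for muscle, blue for CON and orange for HSD, 1 point per library. At a like marker level the HSD points lie below the CON points, with Hp per marker level of 797 to 1164 against 1763 to 1895 in eWAT.

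Of the pathway lists in muscle, none had a called gene. Among 7 other positive acute phase genes tested, Mt1, a metallothionein, was at 7.39 to 8.36 FPKM in CON and 5.24 to 6.69 in HSD (-0.40 ± 0.13, SE), and Hamp and Serpina3n differed by -0.72 ± 0.47 and -0.33 ± 0.22. Of 13 signalling and transcription factors tested, Cebpb was at 3.59 to 6.72 FPKM in CON and 7.58 to 14.04 in HSD (1.00 ± 0.26, adjusted p = 0.106), opposite in sign to its eWAT difference (the difference between the tissues was not tested), and Nfkb2 was at 2.20 to 3.09 and 1.29 to 1.79 (-0.62 ± 0.15, adjusted p = 0.0977). The 6 negative acute phase genes, 6 receptors, 6 haem clearance genes and 3 serum amyloid A partners that were tested had no unadjusted p under 0.05, and no inducing cytokine passed the filter.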

How the data were processed

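RNA of liver, eWAT and quadriceps muscle was sequenced from rRNA-depleted, stranded libraries of 3 CON and 3 HSD mice per tissue. The paper names cuffdiff for the FPKM values, after cutadapt trimming and hisat2 alignment to mm10, on Ensembl genes (release not given in the sources used here). The submitters' processing notes also name HTSeq 0.9.1 and mm9, without a role. Which of these tools gave the deposited values was not tested. Fragments were recovered from the deposited FPKM with GENCODE M21 exon lengths: within 0.02, all libraries gave whole numbers for 18343 of the 18789 genes above 0. Bounds use a floor of 3 fragments for the group at 0 and take the other count as exact. Neither bounds nor counts cover the spread between mice.

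Each tissue was fitted by limma 3.58.1 (R 4.3.3) on log2(FPKM + 0.5), which understates changes of low genes. Genes under a mean of 0.5 FPKM were left out, and p-values were adjusted over all genes by Benjamini-Hochberg. A call needed an adjusted p under 0.05 and an absolute log2 difference of at least 1. Tests were two-sided, and an exact permutation test of 3 against 3 cannot give p below 0.1. The scripts were tested on simulated data. Replicates were separate mice, and the tissues shared mice in part. Deviations of same-numbered CON and HSD libraries correlated across genes at 0.383, 0.177 and 0.184 in muscle. They correlated at -0.473, 0.3955 and -0.213 in liver and at -0.197, 0.0608 and 0.414 in eWAT. No label pairs the CON and HSD mice, so the replicate block is an alternative only.

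Members, lists and tests were chosen with earlier results of these data known. Every member is named, and of each pathway list the genes called or else up to 3 with the smallest p. One gene of these lists and one motif searched are not reported here. Alternatives were other pseudocounts, filters and scalings, the replicate block, each library left out, the study's libraries, the mitochondrial share, the mouse as a random block and, chosen after seeing the data, voom. Promoters were aligned with Biopython 1.88.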

Additional observations from a re-analysis of the deposited data

Results flagged for a closer look

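For Saa4, the diet difference in eWAT minus that in liver was -1.68 on the log2(FPKM + 0.5) scale (adjusted p = 0.0414 in the limma interaction model). It is listed because the difference between the tissues was itself past the threshold, although Saa4 was under the filter in eWAT (45 CON and 0 HSD fragments) and was tested only through its liver level. In liver every HSD library was above every CON library, and in eWAT every HSD library was at 0 and every CON library above 0. Hepatocyte markers, among which Saa4 lay in CON eWAT, summed to 140 to 326 FPKM in CON eWAT and 19.9 to 36.8 in HSD eWAT, and per hepatocyte marker level Saa4 in liver was at 54.4 ± 8.66 in CON and 53.1 ± 14.9 in HSD (SD, n = 3), which overlapped. The part of these markers in the result was not tested. The range of the adjusted p over 3 alternatives was 0.0402 to 0.107, and the call was lost under 2 of them (pseudocount of 1, 0.0866, and median-ratio scaling, 0.107). The tissues shared mice in part.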

How the results depend on the processing

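In liver, 0 of 10 acute phase genes were called under every alternative, with 0 to 1 genes called of all when a library was left out (1 without CON replicate 2) and 35 in the study's libraries. Differences that turned sign there were not called in any fit. Apcs turned to -0.17 without mitochondrially encoded genes, -0.77 with the mitochondrial share as covariate and ranged from -0.49 to 0.70 without single libraries. Orm1 turned to 0.22 in the study's libraries and ranged from -0.58 to 0.28 without single libraries. Orm3 turned to -0.51 in the study's libraries and ranged from -0.20 to 1.19 without single libraries. Orm2 and Hpx turned to -0.012 and -0.17 with that covariate, and Orm2 ranged from -0.39 (without CON replicate 1) to 1.40 without single libraries. In eWAT all 6 genes kept a negative sign under every alternative, with 0 to 160 genes and 0 to 3 members called when a library was left out (160 and 3 without HSD replicate 2, 1 gene without CON replicate 3). In muscle the 35 called genes became 54 with the replicate block, 66 with voom, 7 without the filter and 10 to 61 without single libraries, and Hpx ranged from -0.70 to 0.053. The block changed no other call. Under median-ratio scaling, 5189 genes were called between liver and eWAT in place of 8768, Hp turned to 1.12 and 43 genes were called for the interaction. With that scaling or a pseudocount of 1, 0 members kept the interaction call, and Orm2 lost its call between eWAT and muscle (1.54 and 1.47). The causes were not tested beyond what each alternative leaves out. Depth limits Saa1, Saa2 and Orm2, which rest on few fragments, and 3 libraries per group limit all tests.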
